A study of Mus musculus with 10 samples.

Results

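The mitochondrial ribosomal protein genes were taken as the named genes whose symbol begins with Mrps or Mrpl and a digit, each read by its brightest probe set that carries only that symbol. They numbered 77 of 19937 named genes on the array, with 29 Mrps symbols for the small subunit and 48 Mrpl symbols for the large subunit. CD4 and CD8 double-positive (DP) thymocytes were sorted from 8 week old mice, and RNA from 10 mice was read on 10 Affymetrix arrays, 1 array per mouse. The groups were E2Aflox/flox HEBflox/flox cd4-cre+ (DKO, n = 3), HEBflox/flox cd4-cre+ (HEBKO, n = 2), E2Aflox/flox Cd4-cre+ (E2AKO, n = 2) and wild-type cd4-cre+ (WT, n = 3). All 4 groups therefore carried Cd4-cre, a recombinase transgene that acts in T lineage cells from about the DP stage, so each deletion starts late in thymocyte life and earlier cells are not modelled. Sorted cells had over 98% purity per the labels, with about 1000000 cells per sample and 6 µg of RNA for labelling.

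Mitochondrial ribosomes translate the few messenger RNAs that mitochondrial DNA encodes, which specify core subunits of the respiratory chain and of ATP synthase. Their ribosomal RNAs come from mitochondrial DNA, whereas all of their proteins are encoded in the nucleus, made in the cytosol and imported. Many of the proteins have bacterial counterparts and others exist only in mitochondria. E2A (gene Tcf3) and HEB (gene Tcf12) are E proteins, basic helix-loop-helix factors that bind E-boxes, sustain the DP gene programme and restrain the passage of thymocytes to later stages.

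Values are log2 of the deposited intensities, and levels are compared between arrays for the same probe set, never between probe sets. A gene was called when limma's moderated test, fitted over all 4 groups and 13138 genes tested, gave a Benjamini-Hochberg adjusted p under 0.05. A gene entered the fit when 2 or more arrays read it no lower than their own 40th percentile, and all 77 members did so. Tcf3 was lower in DKO cells by the fit (log2 difference -0.66 ± 0.11, SE, limma adjusted p = 0.00256) and so was Tcf12 (-1.13 ± 0.10, limma adjusted p = 3.07e-05). Tcf12 differed by -0.52 in HEBKO cells (limma adjusted p = 0.0657) and Tcf3 by -0.54 in E2AKO cells (limma adjusted p = 0.998), neither called. Whether these probe sets cover the deleted exons was not examined. The 10 DP marker genes measured, among them Cd4, Cd8a and Rag1, lay above the 40th percentile in all 10 arrays. Their summed intensity was 27627 to 32171 in DKO cells, 36954 and 48030 in HEBKO cells, 49374 and 51092 in E2AKO cells, and 50194 to 52258 in WT cells. The 6 measured markers of mature single-positive T cells, such as Ccr7 and Il7r, summed to 3752 to 5096 in DKO cells, 1228 and 627 in HEBKO cells, 596 and 751 in E2AKO cells, and 649 to 686 in WT cells, and all 6 were called higher in DKO cells. In RNA from a sorted population, a changed share of cells and a changed amount of RNA per cell cannot be told apart. Below the 40th percentile of each array lay 4 or 5 of 6 B cell markers and 7 or 8 of 9 myeloid markers. Of 8 thymic epithelial markers, 3 to 5 lay below it, and they summed to 573 to 620 in DKO cells, 572 and 652 in HEBKO cells, 672 and 703 in E2AKO cells, and 835 to 897 in WT cells.

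The members as a group were higher in DKO and HEBKO cells and close to WT in E2AKO cells. Per array, the median over the 77 genes of the log2 difference from the WT mean was 0.18, 0.21 and 0.26 in DKO cells, 0.17 and 0.31 in HEBKO cells, 0.04 and 0.02 in E2AKO cells, and -0.15, 0.16 and -0.01 in WT cells. Every DKO and HEBKO array thus stood above every WT array, but by little over WT replicate 2. E2AKO arrays lay inside the WT range. Of the 77 members, 36 had their lowest value of all 10 arrays in WT replicate 1 and 30 had their highest in HEBKO replicate 2. The median SD between arrays of a genotype was 0.10 in DKO, 0.12 in HEBKO, 0.08 in E2AKO and 0.17 in WT cells. The WT spread was widest for Mrps18c (SD 0.59, n = 3), Mrpl22 (0.42), Mrpl51 (0.41) and Mrps23 (0.38), and narrowest for Mrps11 (0.0090), Mrpl17 (0.016), Mrpl57 (0.033) and Mrpl10 (0.036).

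**Figure D1:**
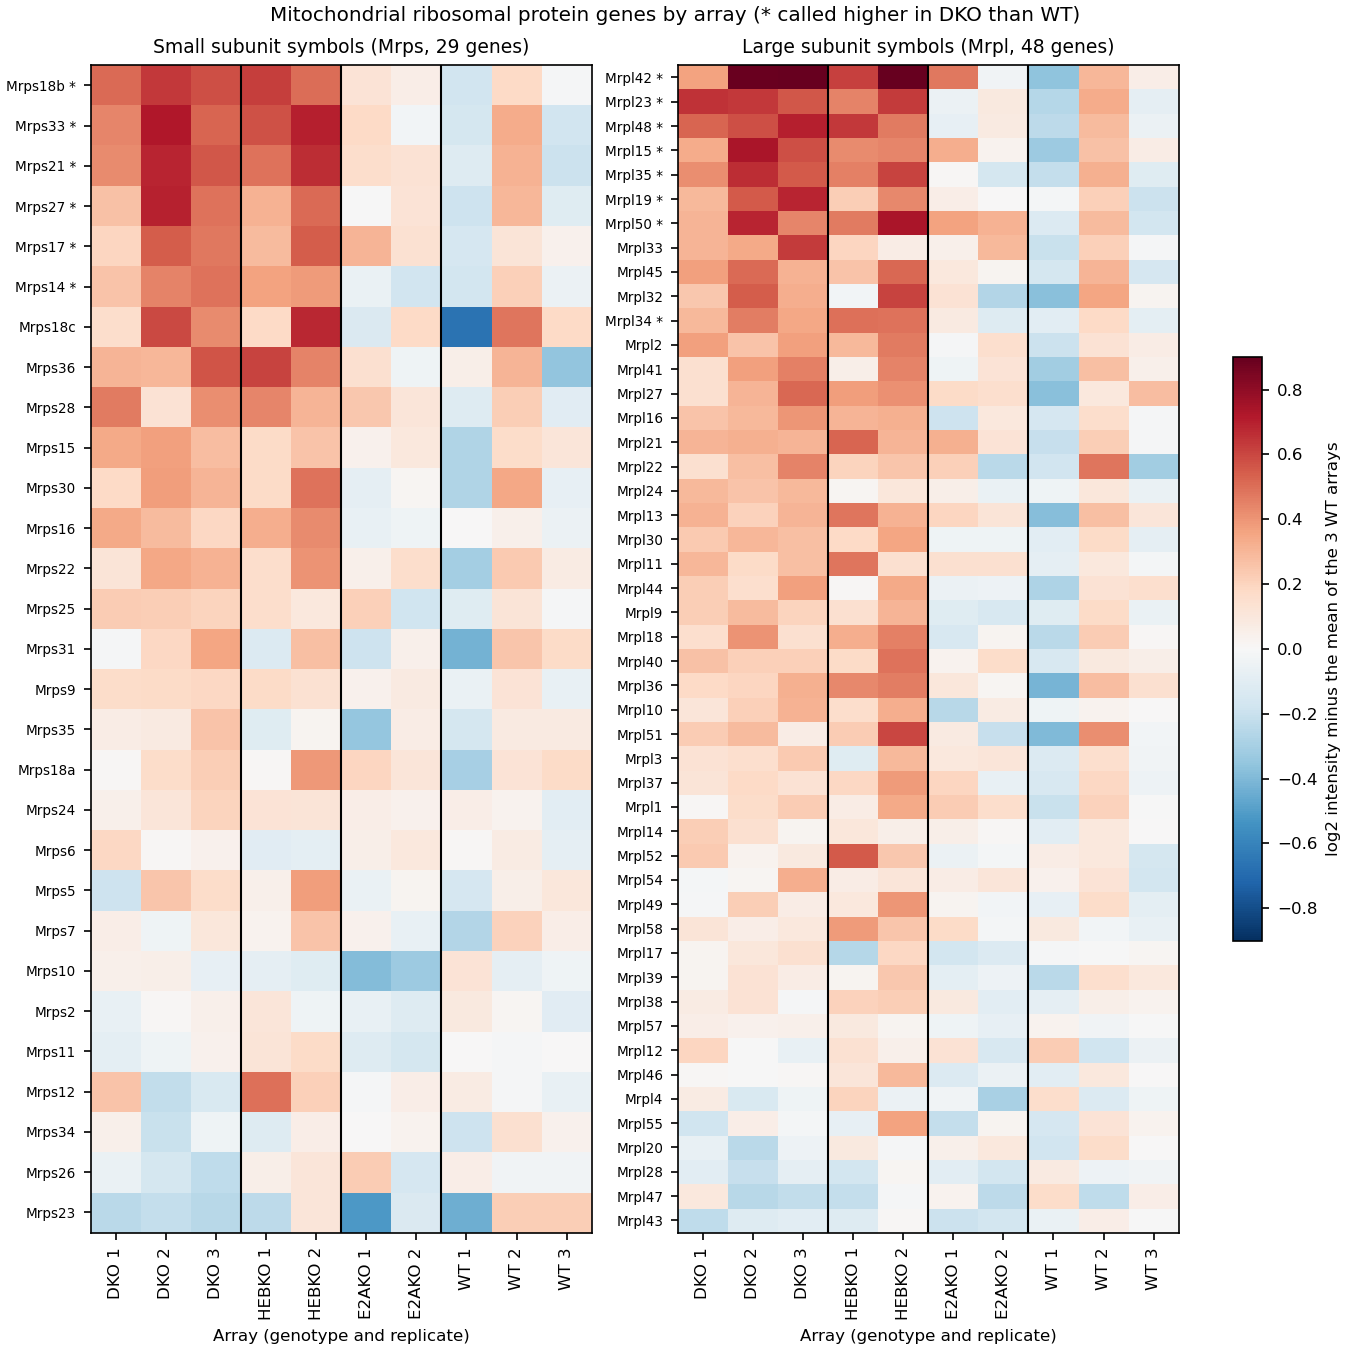
Each row is a member gene and each column an array, and colour gives log2 intensity minus the mean of the 3 WT arrays, with small subunit symbols on the left and large subunit symbols on the right, ordered by the DKO minus WT difference. Red runs through the DKO and HEBKO columns for most rows, WT replicate 1 is mostly blue, and asterisks mark the 14 genes called higher in DKO cells.

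**Figure D2:**
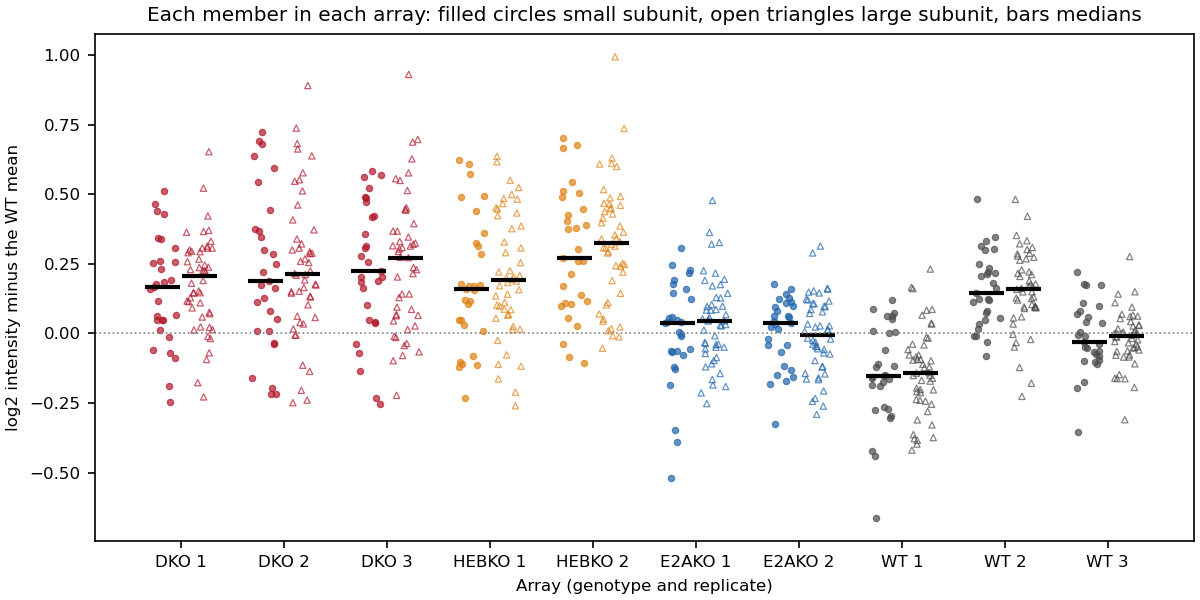
Points are the 77 members in each array, filled circles for the 29 small subunit genes and open triangles for the 48 large subunit genes, as log2 intensity minus the WT mean, and bars are medians. The DKO and HEBKO bars lie above zero in all 5 arrays, and WT replicate 2 comes close to them.

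In DKO against WT cells, 14 of 77 members (18.2%) were called higher, where 8.18% of all genes tested were called higher, and 0 were called lower, where 5.41% of all genes were. By subunit, 6 of 29 small subunit genes (20.7%) and 8 of 48 large subunit genes (16.7%) were called higher. All DKO arrays exceeded all WT arrays for 31 members (40.3%), against 16.7% of all genes, and the reverse held for 3 members (Mrps26, Mrpl28 and Mrpl43), against 13.4% of all genes. The median log2 difference was 0.23 over the members and -0.0056 over all genes tested, with 65 of 77 members above zero. Which arrays were in the fit moved the count: it was 3 without WT replicate 1, 27 without WT replicate 2, 2 without WT replicate 3, 3 without DKO replicate 2 and 3 without DKO replicate 3. The members' median was 0.13 without WT replicate 1, and that of all genes tested was 0.01. With sex as a covariate, read from Xist and Y-linked genes, 7 members were called. The share of all genes called in each of these settings is not given here. A shift in calls over all genes and a shift in the members thus cannot be told apart from these counts.

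Mrps18b and Mrpl48, the first a small and the other a large subunit gene, were called in DKO cells under all 20 alternative settings run. Mrps18b is 1 of the paralogs of a bacterial small subunit protein and sits in the small subunit. Its log2 intensity was 8.61, 8.74 and 8.68 in DKO cells, 8.72 and 8.60 in HEBKO cells, 8.22 and 8.16 in E2AKO cells, and 7.92, 8.28 and 8.09 in WT cells. All 5 arrays of DKO and HEBKO cells were above all 5 of E2AKO and WT cells, with no overlap. The DKO minus WT difference was 0.58 ± 0.10 (SE), a fold of 1.49 (limma adjusted p = 0.0031). Mrpl48, a mitochondria-specific large subunit protein of the central protuberance, read 8.77, 8.82 and 8.94 in DKO cells, 8.88 and 8.71 in HEBKO cells, 8.17 and 8.32 in E2AKO cells, and 8.01, 8.53 and 8.19 in WT cells. Its lowest DKO array was above the highest WT array, WT replicate 2, and the difference was 0.60 ± 0.13 (limma adjusted p = 0.00956). The number of the Mrpl48 probe set lies between those of Mrpl50 and Mrpl37, members on chromosome 4, while Mrpl48 itself is on chromosome 7. Whether this probe set reads the Mrpl48 gene or a copy elsewhere was not examined.

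Mrpl23, counterpart of a bacterial protein at the exit of the peptide tunnel, read 9.48, 9.46 and 9.38 in DKO cells, 9.27 and 9.45 in HEBKO cells, 8.77 and 8.91 in E2AKO cells, and 8.57, 9.16 and 8.75 in WT cells. DKO and WT arrays did not overlap, and the difference was 0.62 ± 0.14 (limma adjusted p = 0.0108). Its call was lost without WT replicate 3 (limma adjusted p = 0.0533). A second Mrpl23 probe set differed by 0.55 in DKO cells. Mrpl42, a mitochondria-specific large subunit protein, had the largest difference, 0.73 ± 0.21 (limma adjusted p = 0.0358). It read 6.23, 6.75 and 6.79 in DKO cells, 6.48 and 6.86 in HEBKO cells, 6.34 and 5.83 in E2AKO cells, and 5.50, 6.17 and 5.93 in WT cells. Its probe set was dim, below the 40th percentile in 2 of 3 WT arrays and 1 of 2 E2AKO arrays, so its measured fold there rests on values near the floor of the array.

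The 250 bases before the annotated start of these 4 genes are shown because they carry the 4 largest called differences, and because E proteins act through short motifs. Sequences are from RefSeq (GRCm38.p6), written 5′ to 3′ on the strand of the gene. Capitals mark motifs found on either strand, namely the E-box CAGCTG in Mrpl42 and the NRF1 core TGCGCA in Mrpl23 and Mrps18b. Outside the stretches shown, the YY1 core ATGGCG lay after the start of Mrpl42. After the start of Mrps18b lay the NRF1 core and the ETS core CCGGAAG, and another Mrpl48 start had the ETS core before it. The windows are chr10:95501950-95502199 on the minus strand for Mrpl42, chr7:142532782-142533031 on the plus strand for Mrpl23, chr7:100608302-100608551 on the minus strand for Mrpl48 (the most upstream of its 4 starts) and chr17:35916441-35916690 on the minus strand for Mrps18b.
Mrpl42: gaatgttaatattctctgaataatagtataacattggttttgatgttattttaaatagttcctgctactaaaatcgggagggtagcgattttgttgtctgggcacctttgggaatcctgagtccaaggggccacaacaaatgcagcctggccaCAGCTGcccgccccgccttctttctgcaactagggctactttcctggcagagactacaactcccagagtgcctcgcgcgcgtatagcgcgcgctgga
Mrpl23: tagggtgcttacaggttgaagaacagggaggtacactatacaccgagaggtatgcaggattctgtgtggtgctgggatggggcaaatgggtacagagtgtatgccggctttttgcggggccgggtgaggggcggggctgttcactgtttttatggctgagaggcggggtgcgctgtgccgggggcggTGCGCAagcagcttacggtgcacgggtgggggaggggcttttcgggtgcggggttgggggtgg
Mrpl48: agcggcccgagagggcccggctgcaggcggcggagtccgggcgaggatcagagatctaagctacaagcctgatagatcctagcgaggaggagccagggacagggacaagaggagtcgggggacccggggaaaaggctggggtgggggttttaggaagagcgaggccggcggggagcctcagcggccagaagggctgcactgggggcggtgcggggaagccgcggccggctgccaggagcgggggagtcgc
Mrps18b: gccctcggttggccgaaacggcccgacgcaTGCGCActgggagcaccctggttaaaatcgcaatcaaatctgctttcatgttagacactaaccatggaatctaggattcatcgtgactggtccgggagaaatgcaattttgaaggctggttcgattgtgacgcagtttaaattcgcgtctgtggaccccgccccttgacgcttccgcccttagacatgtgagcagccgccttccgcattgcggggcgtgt

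Windows of 250 bases before to 50 after the start were at hand for 68 members, in 74 windows, and for 27025 genes in 32851 windows overall. The 9 other members were Mrpl4, Mrpl13, Mrpl15, Mrpl19, Mrpl38, Mrpl54, Mrps28, Mrps34 and Mrps35. Motifs were searched as exact letters on both strands, and no motif contains another, although nearby matches can share bases. The NRF1 core TGCGCA (NRF1 is a known activator of nuclear genes for mitochondrial proteins) stood in 29.7% of member windows, against 7.76% of all windows. The ETS core CCGGAAG (bound by GABP, another such activator) stood in 33.8%, against 8.86%, and the YY1 core ATGGCG in 24.3%, against 8.93%. The Myc E-box CACGTG stood in 9.46%, against 7.15%. For the E-boxes that E proteins favour, the shares were 16.2% against 16.3% for CAGCTG and 13.5% against 20.2% for CAGGTG. Median GC content was 58.5% in member windows, against 52.7% in all windows, and the motif shares were not adjusted for it. Among the 15 windows of 12 members called higher in DKO cells, 3 held the NRF1 core, 6 the ETS core, 4 the YY1 core, 0 the Myc E-box, 1 CAGCTG and 1 CAGGTG. A match is a description of letters in the window and was not set against binding data.

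The other called members were spread over both subunits and over roles. Mrps33, a mitochondria-specific small subunit protein, read 8.67, 8.95 and 8.75 in DKO cells and 8.07, 8.56 and 8.05 in WT cells (difference 0.56 ± 0.14, limma adjusted p = 0.0207). Mrps21, with a bacterial counterpart in the small subunit, read 9.34, 9.60 and 9.48 in DKO cells and 8.80, 9.23 and 8.72 in WT cells (0.56 ± 0.13, limma adjusted p = 0.016). For both genes the groups did not overlap and WT replicate 2 stood nearest to the DKO arrays. The number of the Mrps33 probe set used lies between those of Mrpl23 and Mrpl46, members on chromosome 7, while Mrps33 is on chromosome 6. A second, dim Mrps33 probe set differed by 0.18 in DKO cells. Whether the probe set used reads Mrps33 or a copy elsewhere was not examined. Mrpl15 (0.55 ± 0.15, limma adjusted p = 0.0357) and Mrpl35 (0.54 ± 0.14, limma adjusted p = 0.0209), large subunit proteins with bacterial counterparts, were higher in all DKO arrays too. The remaining 6 called genes were Mrpl19, Mrps27, Mrpl50, Mrps17, Mrps14 and Mrpl34, with differences of 0.37 to 0.51. Apart from Mrps18b, Mrpl48 and Mrpl23, the called genes each lost the call without WT replicate 1, WT replicate 3, DKO replicate 2 or DKO replicate 3. Of all 14, only Mrps27 had DKO and WT arrays that overlapped, at 7.30 in DKO replicate 1 and 7.34 in WT replicate 2.

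**Figure D3:**
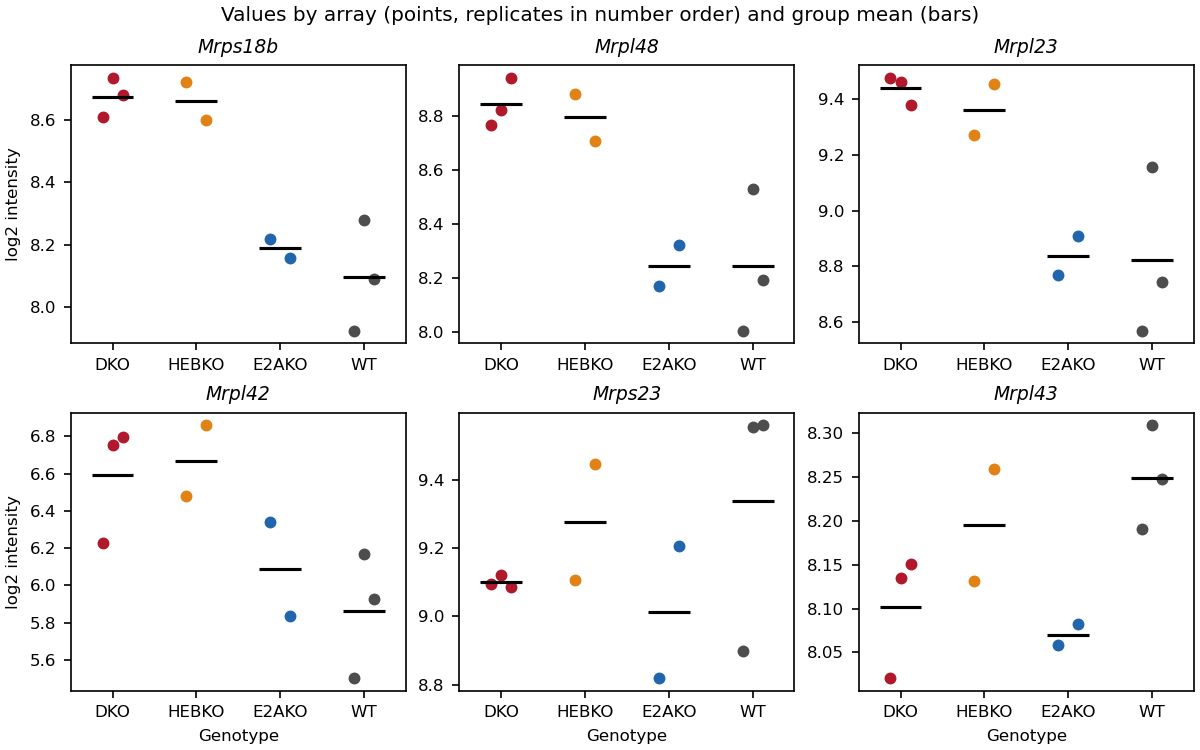
Points are log2 intensities per array and bars are group means for Mrps18b, Mrpl48, Mrpl23, Mrpl42, Mrps23 and Mrpl43, each panel with its own vertical scale. The first 4 genes are higher in each DKO and HEBKO array than in any WT array. For Mrpl42, however, E2AKO replicate 1 (6.34) is above DKO replicate 1 (6.23). Mrpl43 is lower in all 3 DKO and both E2AKO arrays than in any WT array.

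Members on the other side of zero in DKO cells did not pass the test. Mrps23, a mitochondria-specific small subunit protein, read 9.09, 9.12 and 9.09 in DKO cells and 8.90, 9.56 and 9.56 in WT cells. Its difference was -0.24 ± 0.17 (limma adjusted p = 0.447) and the groups overlapped through WT replicate 1. Array weights were the 1 of 20 settings under which it was called. Mrpl43, a mitochondria-specific large subunit protein, read 8.02, 8.13 and 8.15 in DKO cells and 8.19, 8.31 and 8.25 in WT cells. All its DKO arrays were below all its WT arrays, with a difference of -0.15 ± 0.09 (limma adjusted p = 0.333). Mrps26 differed by -0.15 ± 0.11 (limma adjusted p = 0.436) and Mrpl47 by -0.13 ± 0.14 (limma adjusted p = 0.623). A second probe set of Mrpl47 ran the other way, at 0.36 in DKO cells, as did that of Mrpl51, at -0.13 against 0.19 for the probe set used.

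Sex was not stated in the labels, and Xist with Y-linked genes gave 2 females of 3 DKO mice, 1 of 2 HEBKO, 1 of 2 E2AKO and 1 of 3 WT mice. WT replicate 2 was the female. Within females the median DKO minus WT difference over members was 0.07, with 50 of 77 above zero, and within males it was 0.28, with 66 of 77 above zero. For HEBKO the medians were 0.02 in females and 0.41 in males, and for E2AKO they were -0.14 and 0.10. Each of these rests on 1 WT female or 2 WT males, so the sex and the individual mouse cannot be told apart within WT. Mrps18b was higher in DKO cells by 0.37 in females and 0.73 in males, and Mrpl48 by 0.32 and 0.72.

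In HEBKO against WT cells, 1 member, Mrps18b, was called higher (1.3% of 77, where 0.274% of all genes tested were called higher) and 0 were called lower (0.632% of all genes). Its difference was 0.56 ± 0.12 (limma adjusted p = 0.0483), and the call held in 6 of 20 alternatives. The call went when any 1 array other than WT replicate 2 was left out, with adjusted p up to 0.291, while without WT replicate 2 the count was 12. Both HEBKO arrays exceeded all WT arrays for 37 members (48.1%), against 16.5% of all genes, and lay below them for 1 member, Mrps6, against 14% of all genes. The members' median was 0.25, with 68 of 77 above zero, and that of all genes was -0.0029. An unadjusted p under 0.05 was found for 32 members (41.6%), against 16.7% of all genes.

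The largest HEBKO minus WT differences after Mrpl42 (0.81 ± 0.23, limma adjusted p = 0.12) were those of Mrps33 (0.64 ± 0.16, limma adjusted p = 0.0883), Mrpl50 (0.60 ± 0.16, limma adjusted p = 0.0982) and Mrps21 (0.58 ± 0.15, limma adjusted p = 0.0957). A second Mrps33 probe set, below the 40th percentile in 8 of 10 arrays, differed by -0.39 in HEBKO and 0.18 in DKO cells. With the mean of both probe sets, Mrps33 differed by 0.13 in HEBKO cells and was not called in DKO cells. Mrpl50, a mitochondria-specific large subunit protein, read 8.05 and 8.32 in HEBKO cells and 7.46, 7.87 and 7.42 in WT cells, with no overlap. At the other end, Mrpl47 differed by -0.11, Mrps6 by -0.10, Mrps10 by -0.09 and Mrpl28 by -0.07, none of them called. Mrps6, counterpart of a bacterial small subunit protein, read 8.13 and 8.15 in HEBKO cells and 8.24, 8.31 and 8.15 in WT cells.

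In E2AKO against WT cells limma called 0 members and 0 of all genes tested (0%), and 1 member, Mrps10, had an unadjusted p under 0.05, against 3.18% of all genes. The members' median was 0.02, with 42 of 77 above zero, and that of all genes was -0.02. Without WT replicate 1 the members' median was -0.04, and without WT replicate 2 it was 0.09. Both E2AKO arrays exceeded all WT arrays for 3 members (Mrpl11, Mrpl50 and Mrps17), against 5.82% of all genes, and lay below them for 6, against 10.6%. Mrps10, counterpart of a bacterial small subunit protein, read 6.11 and 6.18 in E2AKO cells and 6.62, 6.42 and 6.46 in WT cells (difference -0.36 ± 0.10, limma adjusted p = 0.998). Mrpl50 differed by 0.34, Mrps17 by 0.22, Mrpl42 by 0.22 and Mrpl21 by 0.22, and at the other end Mrps23 by -0.33, Mrpl43 by -0.18 and Mrpl4 by -0.16. With 2 arrays in this group, the 95% interval of the E2AKO minus WT difference was -0.31 to 0.32 for Mrpl48 and -0.16 to 0.34 for Mrps18b, and differences within those bounds were not excluded. The same 3 WT arrays serve as the baseline of each knockout's comparison with WT, so a gene's values in those comparisons are not independent.

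**Figure D4:**
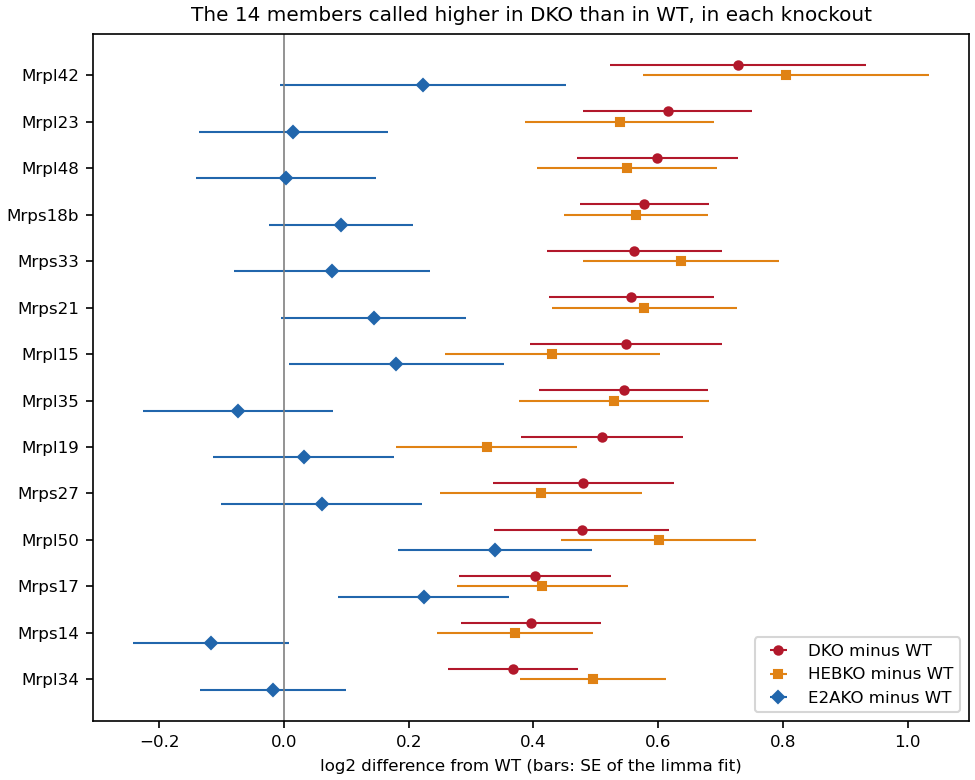
Points are log2 differences from WT, with bars of 1 SE of the limma fit, for the 14 members called higher in DKO cells, with DKO above HEBKO above E2AKO in each row. The genes were chosen by their DKO values, so the DKO points are a description. The HEBKO points lie between 0.33 and 0.81, and the E2AKO points between -0.12 and 0.34.

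The knockouts were also compared with each other, which uses no WT level, although the fit shares 1 estimate of the spread. In DKO against E2AKO cells 6 members (7.79%) were called higher, where 5.1% of all genes tested were, and 0 lower, where 3.97% were. They were Mrpl35 (0.62 ± 0.15, limma adjusted p = 0.0252), Mrpl23 (0.60), Mrpl48 (0.60), Mrps14 (0.51), Mrps18b (0.49) and Mrps10 (0.37), with adjusted p of the others between 0.0212 and 0.0417. Mrps10 was not called in DKO against WT cells (0.01 ± 0.09, limma adjusted p = 0.961). All DKO arrays exceeded both E2AKO arrays for 41 members (53.2%), against 24.1% of all genes, and lay below them for 1, Mrpl20, against 16.1%. The members' median was 0.16, against 0.04 over all genes. The count was 11 without WT replicate 2, and 0 without E2AKO replicate 1, E2AKO replicate 2, DKO replicate 2 or DKO replicate 3.

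In HEBKO against E2AKO cells 0 members were called by limma, where 0.0381% of all genes were called either way, and 21 members (27.3%) had an unadjusted p under 0.05, against 15.4% of all genes. Both HEBKO arrays exceeded both E2AKO arrays for 47 members (61%), against 27.2% of all genes, and lay below them for 1, Mrps6, against 18.4%. The members' median was 0.24, against 0.04 over all genes. In DKO against HEBKO cells limma called 0 members, where 3.63% of all genes were called either way, and 3 members had an unadjusted p under 0.05, against 15.2% of all genes. Those 3 were Mrps12 (-0.39 ± 0.14), which lines the decoding site, Mrpl52 (-0.28 ± 0.12) and Mrpl24 (0.22 ± 0.10). The members' median was -0.04, with 30 of 77 above zero, and the 95% intervals of single genes reached from -0.70 to 0.61. For Mrps18b the interval of the DKO minus HEBKO difference was -0.24 to 0.27. The interaction term, which asks whether the double loss differs from the sum of the single losses, was called for 0 members by limma, where 0.632% of all genes were called. Only Mrps10 had an unadjusted p under 0.05 there (0.46 ± 0.14), against 8.72% of all genes.

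The median differences of the subunits lay close together. They were 0.18 for the small and 0.23 for the large subunit in DKO against WT cells, 0.21 and 0.26 in HEBKO against WT cells, and 0.03 and -0.0015 in E2AKO against WT cells. Per array, the small subunit median minus the large subunit median was -0.04, -0.03 and -0.05 in DKO cells, -0.03 and -0.05 in HEBKO cells, -0.0095 and 0.04 in E2AKO cells, and -0.01, -0.02 and -0.02 in WT cells. The small subunit median was the lower in 9 of 10 arrays, by less than the spread of either median between arrays of a genotype (pooled SD 0.09 for small and 0.10 for large), while the pooled SD of the gap itself was 0.018. The gap in DKO cells was -0.06 and turned to 0.02 with array weights, and that in HEBKO cells was -0.05 and turned to 0.02 without WT replicate 3. Counting Mrps18a and Mrps30 with the large subunit, where structures of the mammalian mitoribosome place them, left the DKO medians at 0.18 and 0.23.

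By origin, the DKO minus WT medians were 0.13 for 17 small subunit genes with bacterial counterparts, 0.22 for 11 mitochondria-specific small subunit genes, 0.27 for 29 large subunit genes with bacterial counterparts and 0.17 for 16 mitochondria-specific large subunit genes. Of these, 4, 2, 5 and 3 genes were called higher, where 8.18% of all genes tested were, and 4 members had no class. Subunits here go by symbol, so the 17 include Mrps18a and the 11 include Mrps30. Of the Mrps18 paralogs, Mrps18b alone was called in DKO cells. Mrps18a, which sits in the large subunit, differed by 0.13 ± 0.14 in DKO cells (limma adjusted p = 0.618). Mrps18c read 9.51, 9.94 and 9.77 in DKO cells and 8.69, 9.83 and 9.53 in WT cells, a difference of 0.39 ± 0.25 (limma adjusted p = 0.368) with overlapping arrays. Differences between the paralogs were not tested. Mrps30, another large subunit protein by structure, differed by 0.29 ± 0.15 (limma adjusted p = 0.256), and Mrpl12, the stalk protein that also binds mitochondrial RNA polymerase, by 0.04 ± 0.13 (limma adjusted p = 0.888). Mrps12 differed by -0.03 in DKO cells and by 0.35 ± 0.14 in HEBKO cells (limma adjusted p = 0.242). Mrpl46 and Mrps11 were the only members next to each other in the RefSeq order of protein-coding genes, and they differed by 0.0065 and -0.03 in DKO cells.

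Other genes of mitochondrial translation were read from lists, whose counts stand beside 8.18% of all genes tested called higher and 5.41% called lower in DKO cells. Of 11 translation factors tested, 2 were called higher in DKO cells and 0 lower, with a median of 0.21. Mrrf, which recycles ribosomes after termination, was higher by 0.80 ± 0.11 (limma adjusted p = 0.000519), and Oxa1l, which inserts new proteins into the inner membrane, by 0.40 ± 0.09 (limma adjusted p = 0.0126). Of 21 assembly genes, 4 were called higher and 0 lower, with a median of 0.18. They were Fastkd2, an RNA-binding protein needed for large subunit assembly (0.71 ± 0.12, limma adjusted p = 0.00193), the ribosomal RNA methyltransferases Tfb1m (0.58) and Nsun4 (0.37), and the GTPase Noa1 (0.40). The Mrrf and Fastkd2 calls held in all 20 alternatives, that of Oxa1l was lost without DKO replicate 2 (limma adjusted p = 0.0539), and Tfb1m, Noa1 and Nsun4 each lost theirs without WT replicate 1 and without DKO replicate 2, among others. The 4 tested mitoribosomal proteins with other symbols, Dap3, Chchd1, Gadd45gip1 and Ptcd3, differed by 0.28, 0.27, 0.25 and 0.10, with 0 called.

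Mitochondrial aminoacyl-tRNA synthetases went in both directions, with 2 of 16 called higher and 2 lower, where 8.18% and 5.41% of all genes were. Of the 16, Rars2 (0.59 ± 0.14, limma adjusted p = 0.017) and Tars2 (0.41 ± 0.09, limma adjusted p = 0.0134) were called higher in DKO cells, and Vars2 (-0.85 ± 0.10, limma adjusted p = 0.000139) and Aars2 (-0.58 ± 0.11, limma adjusted p = 0.00415) lower, with a list median of 0.17. Vars2 was also called lower in HEBKO cells (-0.70 ± 0.11, limma adjusted p = 0.0193), a call lost without WT replicate 1, WT replicate 3 or HEBKO replicate 1. The Rars2 call was lost without WT replicate 1, WT replicate 3 or DKO replicate 3, and the Tars2 call without WT replicate 3, DKO replicate 2 or DKO replicate 3. Of 12 genes of mitochondrial transcription and RNA stability, Ptcd2 (0.58) and Lrpprc (0.41), which stabilises mitochondrial messenger RNAs, were called higher and 0 lower, with a median of 0.12. Both of these calls were lost without WT replicate 1, WT replicate 3, DKO replicate 2 or DKO replicate 3.

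Among 11 regulators of mitochondrial genes, Myc was the 1 called in DKO cells (1.25 ± 0.20, limma adjusted p = 0.00136). Myc differed by 0.68 ± 0.22 in HEBKO cells (limma adjusted p = 0.153) and by -0.15 ± 0.22 in E2AKO cells (limma adjusted p = 0.998). Nrf1, Gabpa and Yy1, which encode the factors of the motifs above, differed by -0.03, 0.0092 and -0.12 in DKO cells, with 0 called. Cytosolic ribosomal protein genes had 36 of 59 called higher in DKO cells, against 8.18% of all genes, and 0 lower, with a median of 0.52. In HEBKO cells 0 of the 59 were called, with a median of 0.40, and in E2AKO cells 0, with a median of 0.03. The 12 S phase genes had a median of 0.02 in DKO cells, 0.54 in HEBKO cells and -0.10 in E2AKO cells, with 0 called in each. Per array, their median was 0.18, 0.11 and -0.34 in DKO cells and 0.59 and 0.58 in HEBKO cells. It was 0.17 and -0.40 in E2AKO cells, and -0.17, 0.26 and -0.12 in WT cells. The members' higher values in DKO cells thus went with higher mature T cell markers, higher Myc and higher cytosolic ribosomal protein genes. DP markers in DKO cells were below WT for 8 of 10 genes. Of the 10, 6 were called lower, where 5.41% of all genes tested were. In HEBKO cells, beside the members, the medians of cytosolic ribosomal protein genes and S phase genes and the value of Myc were above WT, DP markers were below WT for 9 of 10 genes, and the summed mature marker intensity was 1228 in HEBKO replicate 1 and 627 in HEBKO replicate 2, against 649 to 686 in WT arrays, with none of these genes called in HEBKO against WT cells. The part of any of these in the members' result was not tested.

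**Figure D5:**
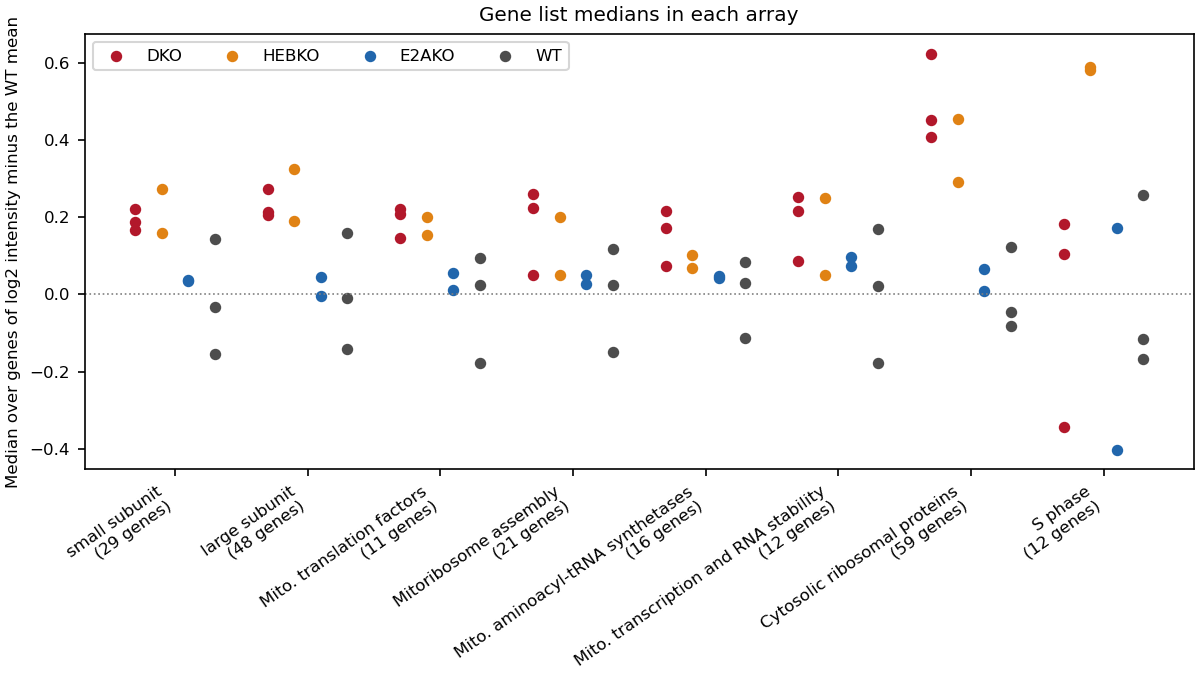
Points are arrays, and height is the median over a list's genes of log2 intensity minus the WT mean, for DKO, HEBKO, E2AKO and WT cells from left to right in each list. The mitoribosomal lists sit between 0.16 and 0.32 in DKO and HEBKO arrays, cytosolic ribosomal proteins reach 0.62 in DKO replicate 1, and S phase genes stand at 0.59 and 0.58 in HEBKO arrays.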

How the data were processed

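Total RNA of sorted DP thymocytes was labelled and hybridised to Affymetrix arrays, per the labels' protocols. The authors deposited linear intensity values for 34760 probe sets, made by RMA (robust multi-array average) per the submitters' processing notes, with the version not given in the sources used here. Log2 was taken with no constant. Probe set genes came from the platform annotation: 21640 probe sets carried 1 symbol, 1321 several and 11799 none, and only the first were used. R 4.3.3 and limma 3.58.1 (lmFit with 1 mean per genotype, eBayes, two-sided, Benjamini-Hochberg over 13138 genes) gave 7 contrasts, after a check on simulated data. The labels call replicates biological and from individual mice, and no batch is stated. The number of arrays limits the precision.

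The members, lists and tests were chosen with earlier results of these data known. Named genes were the called members (up to 8 per direction and contrast), the 4 highest and lowest differences against WT, the WT spread extremes, the Mrps18 paralogs, Mrps30, Mrps12 and Mrpl12, called genes of the other lists (up to 5), and promoters of 4 called members. The 6 further called DKO members, the neighbours and members named for not overlapping or for an unadjusted p were chosen after their values were seen. 1 probe set naming a member and a second gene was left out. The labels do not say that replicate numbers pair mice, so no block was used. Same-numbered deviations over genes correlated at 0.396, 0.008 and 0.134 for DKO with WT, and 0.484 and 0.446 for DKO with HEBKO. They correlated at 0.368 and 0.218 for HEBKO with WT, and -0.0246 and -0.292 for E2AKO with WT. For E2AKO with HEBKO the values were 0.154 and 0.154, and for E2AKO with DKO 0.230 and 0.154. In a group of 2 arrays, deviations from the group mean are equal and opposite by construction. Both values of E2AKO with HEBKO are therefore the same value, and the other values are not independent of each other. How many lie above zero is thus not evidence of a shared effect. By Xist and Y-linked genes, replicate 1 was female and replicate 2 male in each knockout. In WT cells replicate 1 was male and replicate 2 female. For replicates 1 and 2 of the knockouts, number and sex thus cannot be told apart. Whether same-numbered arrays share an effect was not tested, and counts with a block are given below.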

Additional observations from a re-analysis of the deposited data

How the results depend on the processing

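Counts of called members moved most. DKO against WT gave 32 with array weights, 7 with sex as a covariate and 9 with only the groups compared, and 2 to 27 when 1 array was left out, where 14 were reported. The array weights were 3.29 for WT replicate 3 and 2.61 for DKO replicate 2, against 0.43 to 1.03 for the other arrays. Results with array weights, here and above, thus lean most on those arrays. HEBKO against WT gave 11 with array weights and 0 with no filter, arrays shifted to 1 median, sex as a covariate or only the groups compared, and 0 to 12 when 1 array was left out, where 1 was reported. DKO against E2AKO gave 15 with array weights and 0 to 11 when 1 array was left out, where 6 were reported. With the replicate number as a block, HEBKO against WT gave 0 and DKO against E2AKO 11, and the numbers are not known to pair mice. The other counts moved by less than 1.5 times or remained at 0. All counts by setting, here and above, stand without the share of all genes called in the same setting. They therefore do not show whether calls moved more among the members than among all genes.

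The small minus large gap in DKO against WT cells was -0.034 with the filter at the 60th percentile, 0.023 with array weights, -0.036 with sex as a covariate, and -0.056 to -0.0082 without 1 array. In HEBKO against WT cells it was -0.070 after renewed quantile normalization, -0.091 with the mean of probe sets, -0.096 with array weights, -0.013 with the replicate block, and -0.099 to 0.022 without 1 array. In E2AKO against WT cells it was -0.0075 with array weights and -0.010 to 0.043 without 1 array. Without 1 array the DKO small subunit median ran over 0.11 to 0.28 and the large over 0.14 to 0.32, the HEBKO ones over 0.13 to 0.27 and 0.19 to 0.36, and the E2AKO ones over -0.048 to 0.093 and -0.038 to 0.098. No called gene named in the text changed sign in any setting, while uncalled ones did, such as Mrpl47 in DKO against WT cells (-0.24 to 0.12). The cause of these shifts was not tested. Leaving out pseudogene symbols was not run, since no member carries one, and the interaction needs all groups. Symbols do not show where a probe set matches in the genome. Whether the probe sets used, those of Mrpl48 and Mrps33 among them, read the named gene or copies elsewhere was not examined.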
